A study of Mus musculus with 13 samples.

Results

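The acute phase proteins are plasma proteins whose output from the liver shifts during inflammation or injury. The 10 described here are Saa1, Saa2, Orm1, Orm2, Hp, Hpx, Lcn2, Serpina3n, Itih3 and Itih4. They were picked by gene symbol, with no measured value in the rule, and are 10 of the 53392 genes in the deposited table. All 10 had enough counts to be tested, so none was lost to a filter on low counts.

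Liver RNA was sequenced from 13 mice of a study that lowers hepatic ceramide by expressing the ceramidase ASAH1, an enzyme that cleaves ceramide. The genotypes had 3 parts. Albumin-Cre and Rosa26-loxP-stop-loxP-rtTA were shared, homozygous, by the 13 mice, and TRE-ASAH1 set ASAH+ mice apart from ASAH- mice. Because Albumin-Cre is active in hepatocytes, doxycycline (Dox) switches the transgene on in those cells. The mice were young adult females, and all ate a liquid diet with 28% of calories from ethanol (Etoh) for 4 weeks. No group without ethanol is among these 13 samples, so nothing below compares alcohol with no alcohol.

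There were 3 groups. The first held 4 ASAH- mice fed Etoh with Dox (ASAH- Etoh-Dox), which lack the ceramidase transgene. The second held 5 ASAH+ mice fed Etoh with Dox (ASAH+ Etoh-Dox), in which the transgene is induced. The last held 4 ASAH+ mice fed Etoh without Dox (ASAH+ Etoh), in which it is present but not induced. For the ASAH+ samples the titles contradict the other labels: where a description and an induction label give Dox the title gives none, and the reverse. The descriptions and induction labels were used here. The total count per mouse ran from 17819486 to 35358711, with a median of 24454043, and was largest in mouse 1 of ASAH+ Etoh-Dox.

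Hepatocytes are the main source of acute phase proteins. Interleukin-6 acts through its receptor and gp130 to activate JAK kinases and STAT3, while interleukin-1 and tumour necrosis factor act through NF-kB, and factors of the C/EBP family join both routes at the promoters of these genes. Proteins that increase are called positive acute phase proteins, and proteins such as albumin and transferrin that decrease are called negative ones. The serum amyloid A proteins Saa1 and Saa2 travel on high-density lipoprotein and are among the steepest responders in mice. The orosomucoids Orm1 and Orm2 are glycoproteins that bind drugs and lipids. Haptoglobin (Hp) captures free haemoglobin, hemopexin (Hpx) captures free haem, and lipocalin 2 (Lcn2) binds the iron carriers that bacteria secrete. Serpina3n is an inhibitor of serine proteases. Itih3 and Itih4 are inter-alpha-trypsin inhibitor heavy chains; Itih3 can be linked to hyaluronan in the matrix, while Itih4 circulates alone.

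The transgene product served as a check of the labels. Asah1 measured 48.7, 40.0, 53.7 and 55.0 CPM (counts scaled to the size of each library with edgeR's TMM factors) in ASAH- Etoh-Dox mice 1 to 4. In ASAH+ Etoh-Dox mice 1 to 5 it measured 10306, 9660.5, 15122, 12715 and 15923 CPM, and in ASAH+ Etoh mice 1 to 4 it measured 46.7, 44.2, 46.7 and 48.2 CPM. The 5 mice described as ASAH+ on Etoh-Dox were therefore all far above the other 8, and the other groups overlapped. Asah1 was higher in ASAH+ Etoh-Dox than in ASAH- Etoh-Dox by a log2 fold change of 8.01 (SE 0.20, adjusted p = 1.24e-11), and higher than in ASAH+ Etoh by 8.10 (SE 0.21, adjusted p = 1.13e-11), both by edgeR's quasi-likelihood test after Benjamini-Hochberg adjustment over 14317 genes. In each mouse Asah1 stood on the side that the description and the induction label give it, not the side that the title of an ASAH+ sample gives.

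The tissue was checked with markers of its cell types. All 8 hepatocyte markers had counts well above 0 in every mouse, and their summed level ran from 90760.2 to 140593 CPM, with Alb the most abundant at a mean of 90268 CPM. The lowest sum was that of mouse 1 of ASAH+ Etoh-Dox, against 112557 to 127602 CPM in the other 4 mice of its group and 103498 CPM in the next lowest of all mice, mouse 1 of ASAH+ Etoh. Alb, Ttr and Apoa1 in this sum are also negative acute phase genes, so it is not a measure apart from that response. Of the 4 adipocyte markers, Lep had no count in any mouse and the others had at most 10. In bulk tissue, fewer cells of a type and less RNA per cell cannot be told apart, which applies to every level below.

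The 10 genes covered a wide range of levels. Per kilobase of the principal transcript, the mean over 13 mice was 2203 CPM per kb for Hpx, 1589 for Hp, 1002 for Itih4, 751 for Orm1, 322 for Itih3, 294 for Serpina3n, 92.9 for Saa1, 49.5 for Saa2, 46.1 for Orm2 and 32.1 for Lcn2. Neighbours in this order had ranges over mice that overlapped, except that Orm1 lay above Itih3 with no overlap. Within single mice the order was steadier. Hp exceeded Itih4 and Itih4 exceeded Orm1 in 13 of 13 mice on the per kb scale, and Saa1 exceeded Saa2 in 13 of 13. By contrast, Itih3 exceeded Serpina3n in 7 of 13 mice and Saa2 exceeded Orm2 in 6 of 13, so those neighbours had no fixed order. The other serum amyloid A genes in the liver, Saa4 and Saa3, measured 153 and 8.52 CPM per kb, and Orm3 measured 16.8.

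Several of these genes have near-identical copies, and their separate values are uncertain for that reason. Saa1 (chr7:46740497-46742980, minus strand, GRCm38.p6) and Saa2 (chr7:46751790-46754313, plus strand) lie side by side and are transcribed away from each other. Of all stretches of 31 bases in the annotated transcripts of Saa1, 46.0% also occur in Saa2, and 44.4% of those of Saa2 occur in Saa1. Orm1 and Orm2 each share 27.5% of such stretches with the other. Serpina3n shares 21.6% with other genes, with Serpina3f holding the most at 5.90%. No stretch of Hpx, Lcn2 or Itih3 was found in another gene, and under 1% of those of Hp and Itih4 were. The summed levels of Saa1 and Saa2, and of Orm1, Orm2 and Orm3, are given too.

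**Figure D1:**
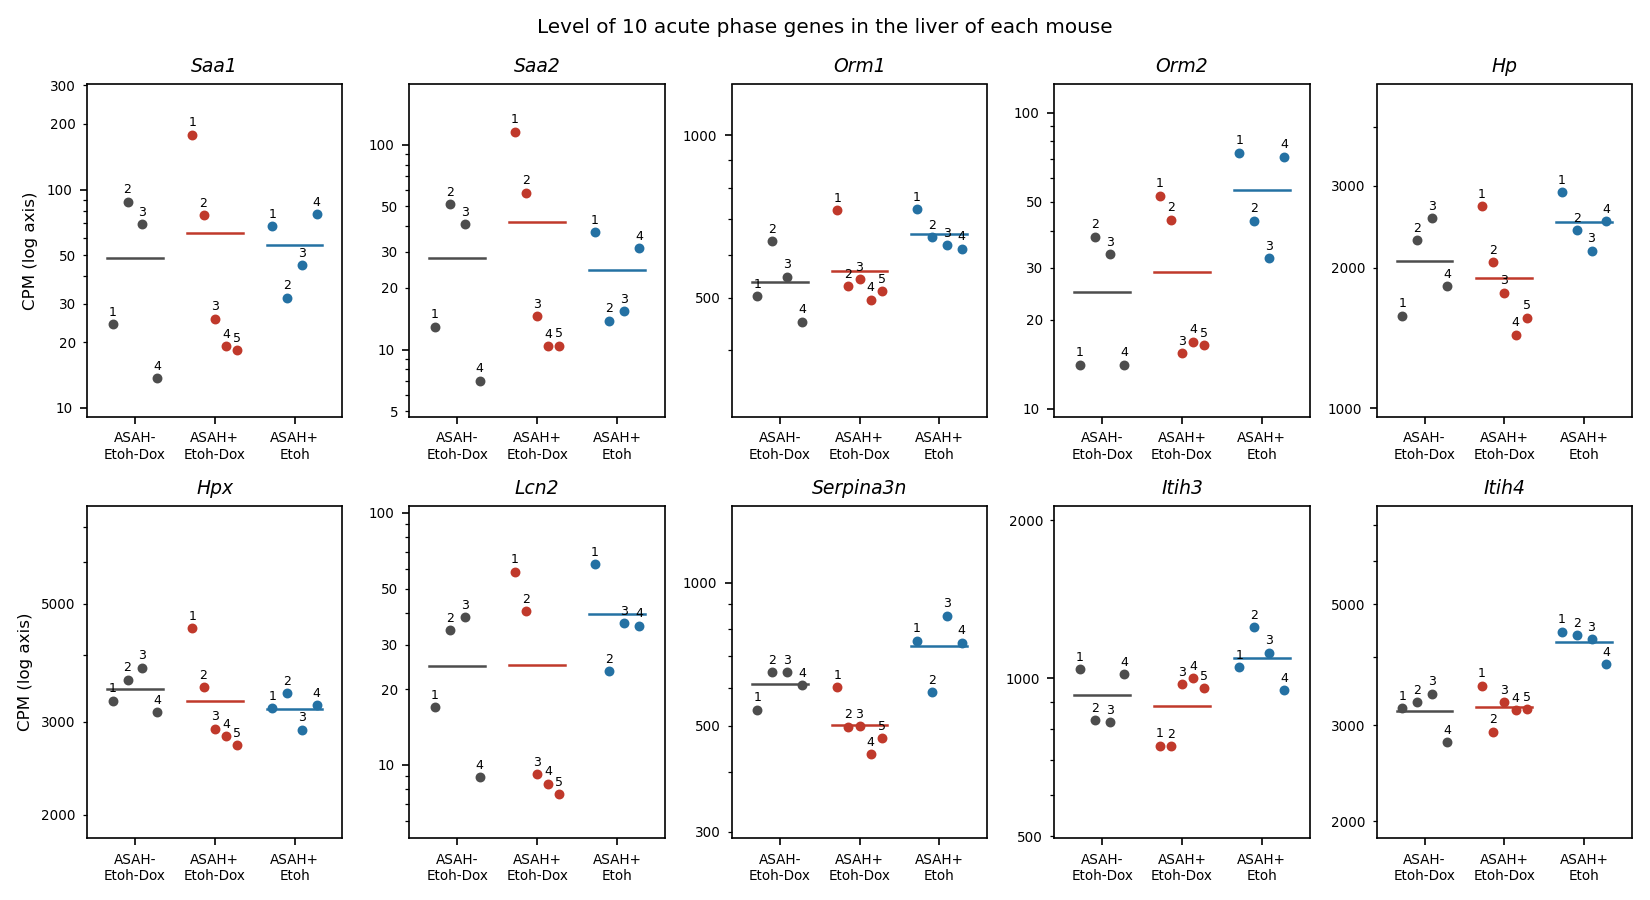
Level of each of the 10 acute phase genes in each mouse, in CPM on a log axis, with 1 point per mouse and a bar at the mean of each group (4 ASAH- Etoh-Dox, 5 ASAH+ Etoh-Dox and 4 ASAH+ Etoh mice). Saa1 ran from 13.6 to 178 CPM, while the Itih4 points of ASAH+ Etoh sit above those of both other groups.

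Serum amyloid A is the textbook readout of an acute phase response in the mouse, and here it varied mostly from mouse to mouse. Saa1 measured 24.2, 87.9, 69.6 and 13.6 CPM in ASAH- Etoh-Dox mice 1 to 4. The ASAH+ Etoh-Dox mice 1 to 5 had 178, 76.4, 25.6, 19.2 and 18.3 CPM of Saa1, and the ASAH+ Etoh mice 1 to 4 had 68.0, 32.0, 45.2 and 77.1 CPM. Each Dox group thus held 2 high mice, mice 2 and 3 of ASAH- and mice 1 and 2 of ASAH+, with the rest well below them. The ASAH+ Etoh mice were spread more evenly, with mouse 4 above mouse 3 of ASAH- and mouse 2 of ASAH+ on Etoh-Dox, and all 3 groups overlapped. Saa2 measured 12.9, 51.4, 40.9 and 7.04 CPM in ASAH- Etoh-Dox, 116, 58.3, 14.6, 10.4 and 10.4 CPM in ASAH+ Etoh-Dox, and 37.5, 13.8, 15.3 and 31.1 CPM in ASAH+ Etoh. Its high mice were those of Saa1. The sum of Saa1 and Saa2 ran from 20.7 CPM in ASAH- Etoh-Dox mouse 4 to 294 CPM in ASAH+ Etoh-Dox mouse 1. This was a 14.2-fold range, between the 13.1-fold range of Saa1 and the 16.4-fold range of Saa2. Counts per mouse ran from 382 to 6452 for Saa1 and from 197 to 4187 for Saa2.

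Lcn2 and Orm2 had the same high and low mice within the Dox groups. Lcn2 measured 16.97, 34.4, 38.7 and 8.97 CPM in ASAH- Etoh-Dox mice, 58.4, 40.8, 9.18, 8.42 and 7.67 CPM in ASAH+ Etoh-Dox mice, and 62.7, 23.6, 36.5 and 35.7 CPM in ASAH+ Etoh mice. Mice 2 and 3 of ASAH- Etoh-Dox and mice 1 and 2 of ASAH+ Etoh-Dox were again the high ones. Orm2 measured 14.1, 38.2, 33.2 and 14.1 CPM in ASAH- Etoh-Dox, 52.5, 43.6, 15.4, 16.9 and 16.4 CPM in ASAH+ Etoh-Dox, and 73.3, 43.3, 32.3 and 71.0 CPM in ASAH+ Etoh. Its highest values, in mice 1 and 4 of ASAH+ Etoh, came from the group without Dox, yet the groups overlapped. The summed level of Orm1, Orm2 and Orm3 ran from 472 to 831 CPM and was mostly Orm1.

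The scavengers of haemoglobin and haem varied less. Hp measured 1578, 2292, 2557 and 1825 CPM in ASAH- Etoh-Dox mice, 2707, 2053, 1769, 1436 and 1561 CPM in ASAH+ Etoh-Dox mice, and 2909, 2406, 2175 and 2518 CPM in ASAH+ Etoh mice. Mouse 1 of ASAH+ Etoh-Dox was the highest of its group by far, and the other 4 lay below all 4 ASAH+ Etoh mice. Hpx measured 3284, 3599, 3794 and 3123 CPM in ASAH- Etoh-Dox, 4502, 3485, 2908, 2816 and 2709.9 CPM in ASAH+ Etoh-Dox, and 3184, 3395, 2895 and 3226 CPM in ASAH+ Etoh. Mouse 1 of ASAH+ Etoh-Dox again stood highest, and the 3 groups overlapped. Orm1 ran from 451 to 636 CPM in ASAH- Etoh-Dox, from 496 to 726 CPM in ASAH+ Etoh-Dox and from 617 to 731 CPM in ASAH+ Etoh. The 726 CPM of ASAH+ Etoh-Dox mouse 1 stood apart from the other 4 mice of its group, which had at most 541 CPM.

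The spread among mice of the same group set 4 genes apart from the other 6. The pooled within-group SD of log2 CPM was 1.31 for Saa2, 1.19 for Saa1, 1.08 for Lcn2 and 0.76 for Orm2, which placed them at percentiles 98.8, 98.5, 98.2 and 95.5 of the 14317 genes tested. Hp had an SD of 0.30, at percentile 62.0. The other 5 lay below the median of all genes: 0.21 for Hpx, 0.19 for Itih3, 0.19 for Orm1, 0.18 for Serpina3n and 0.11 for Itih4. These are abundant genes, and among genes within 0.5 log2 CPM of their own level Orm1, Hpx, Serpina3n and Itih3 were close to the middle, at percentiles 57.4, 56.0, 53.8 and 50, with Itih4 at 28.0 and Hp at 76.7. These percentiles rest on 141 genes for Orm1, 132 for Serpina3n, 88 for Itih3, 30 for Hp and 25 each for Hpx and Itih4. By the same measure Saa1, Saa2, Lcn2 and Orm2 were at percentiles 99.8, 99.8, 99.5 and 98.6. Without mouse 1 of ASAH+ Etoh-Dox the SD of Hpx was 0.13. These are descriptions, and the 4 genes were singled out after their values were seen.

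**Figure D2:**
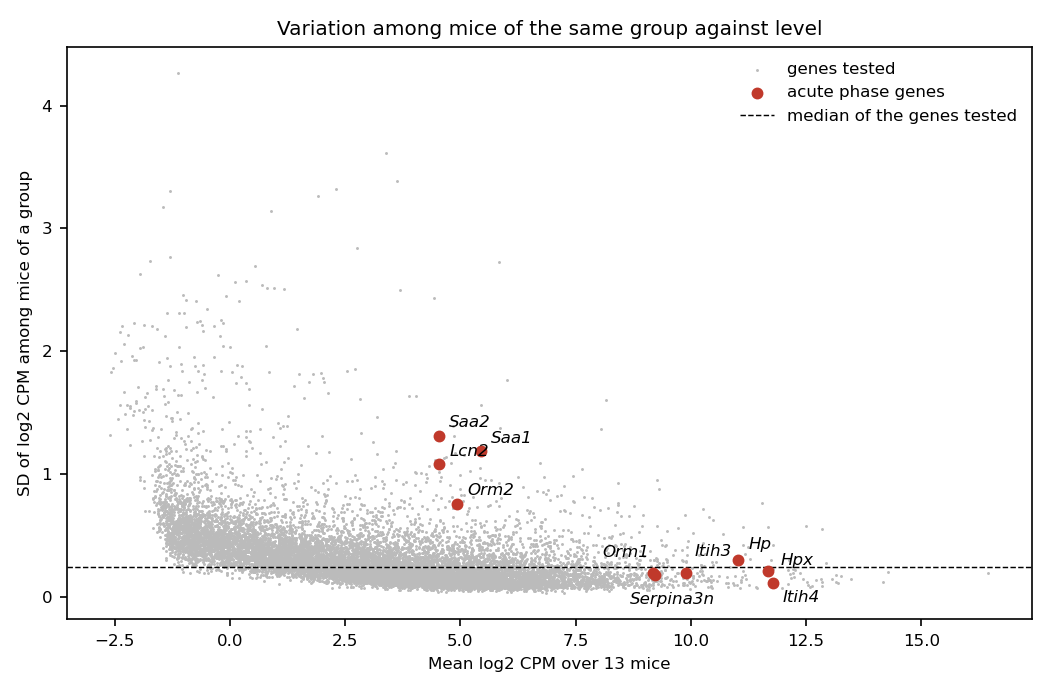
Pooled within-group SD of log2 CPM for each of the 10 genes, as labelled points against the mean log2 CPM, over all 14317 genes tested in grey. Saa1, Saa2, Lcn2 and Orm2 lie near the upper edge of genes of like level.

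The first comparison sets ASAH+ against ASAH- mice, both on Etoh-Dox, and asks what the induced ceramidase changes when diet and Dox are the same. Haptoglobin, hemopexin and the Itih chains differed by small fractions of a doubling, and the serum amyloid A genes differed by less than the spread among mice. Serpina3n, the protease inhibitor, was the gene with the least overlap. No member of the 10 passed an adjusted p under 0.1 by edgeR's quasi-likelihood test after Benjamini-Hochberg adjustment, where 0.014% of all genes tested did. At an unadjusted p under 0.05, 1 of 10 members passed, on the lower side, against 2.86% of all genes (1.57% lower), and DESeq2 on all 13 mice gave 0 of 10 against 0.0759% (0.0316% lower). In no member were the groups free of overlap, against 0.44% of genes higher and 0.447% lower in ASAH+.

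Serpina3n measured 541, 649, 649 and 608 CPM in ASAH- Etoh-Dox mice 1 to 4 and 602, 498, 499, 436 and 472 CPM in ASAH+ Etoh-Dox mice 1 to 5. All but mouse 1 of the ASAH+ group lay below all 4 ASAH- mice, and an ASAH+ mouse was the higher one in 1 of 20 pairs. The log2 fold change was -0.29 (SE 0.11), with an exact two-sided permutation p of 0.0397 and an adjusted p of 0.9996 by edgeR's quasi-likelihood test after Benjamini-Hochberg adjustment, so it did not pass. The summed stellate cell markers separated these groups, at 228.3 to 273.6 CPM in ASAH- and 177.0 to 226.6 CPM in ASAH+ mice. Whether that bears on Serpina3n was not tested. Mouse 1 of ASAH+ Etoh-Dox, the highest of the group for Saa1, decided the direction of several other differences. It also had the largest total count and the lowest hepatocyte marker sum. Alb, Ttr and Apoa1 in that sum are also negative acute phase genes. Whether the sum or the total count of this mouse bears on these differences was not tested. With this mouse, the log2 fold change was 0.38 (SE 0.74) for Saa1, 0.58 (SE 0.81) for Saa2, 0.22 (SE 0.47) for Orm2, 0.07 (SE 0.12) for Orm1, 0.02 (SE 0.66) for Lcn2 and 0.02 (SE 0.083) for Itih4. Without it these were -0.48, -0.25, -0.11, -0.041, -0.57 and -0.010. The differences of Orm1, Lcn2 and Itih4 also turned negative without ASAH- Etoh-Dox mouse 4, at -0.0047, -0.26 and -0.035, and that of Lcn2 without ASAH- mouse 1 (-0.11) or ASAH+ Etoh-Dox mouse 2 (-0.23). Hp at -0.11 (SE 0.18) became 0.0051 without ASAH- mouse 3, while Hpx and Itih3, both at -0.07, kept their sign without any 1 mouse. Their size did not hold, as Hpx ran from -0.21 to -0.0012 and Itih3 from -0.12 to -0.0047.

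The second comparison is within ASAH+ mice, with Etoh-Dox set against Etoh alone, and asks the same question with diet in place of genotype as the control. It shares the 5 ASAH+ Etoh-Dox mice with the first, so the comparisons are not independent. Dox and the induced transgene differ together here and cannot be told apart. The inter-alpha-trypsin inhibitor chain Itih4 and the protease inhibitor Serpina3n had the clearest differences here, and neither passed edgeR's test. Of the 10 members, 0 passed an adjusted p under 0.1 by edgeR's quasi-likelihood test after Benjamini-Hochberg adjustment, against 0.014% of all genes tested. At an unadjusted p under 0.05, 4 of 10 passed, all lower (Serpina3n, Itih4, Itih3 and Hp), against 7.29% of all genes and 3.24% on the lower side. DESeq2 on all 13 mice called 2 of 10, both lower, against 4.94% of the genes it gave an adjusted p and 4.04% on the lower side, and it gave none for Saa1, Saa2, Orm2 and Lcn2.

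Itih4 had the clearest separation. It measured 3548, 2921, 3309.6, 3201 and 3216 CPM in ASAH+ Etoh-Dox mice 1 to 5 and 4456, 4396, 4316 and 3880.1 CPM in ASAH+ Etoh mice 1 to 4. Every Etoh-Dox mouse lay below every Etoh mouse, which was true of 1 of 10 members and of 1.49% of all genes on the lower side (1.09% on the higher side). The log2 fold change was -0.40 (SE 0.083), and the exact permutation test (two-sided) gave p = 0.00794, its lowest possible value for groups of 5 and 4. Its adjusted p was 0.346 by edgeR's quasi-likelihood test after Benjamini-Hochberg adjustment and 0.000558 by DESeq2 on all 13 mice. Over the alternative settings with no mouse left out it ran from 0.000558 to 0.692, and by edgeR with each mouse left out in turn from 0.246 to 0.861. The call thus depended on the tool. The log2 fold change ran from -0.41 to -0.39 over those settings and from -0.45 to -0.36 with a mouse left out. The summed endothelial markers had a mean of 112 CPM in ASAH+ Etoh-Dox and 143 CPM in ASAH+ Etoh, with overlap. Whether that bears on Itih4 was not tested.

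Serpina3n measured 602, 498, 499, 436 and 472 CPM in ASAH+ Etoh-Dox against 755, 589, 852 and 748 CPM in ASAH+ Etoh. Mouse 2 of ASAH+ Etoh was the low one of its group and lay just under mouse 1 of ASAH+ Etoh-Dox, so the groups overlapped in 1 of 20 pairs. The log2 fold change was -0.55 (SE 0.11; exact two-sided permutation p = 0.0238). Its adjusted p was 0.346 by edgeR's quasi-likelihood test after Benjamini-Hochberg adjustment and 0.000873 by DESeq2 on all 13 mice, with a range of 0.000873 to 0.692 over the alternative settings with no mouse left out and of 0.0881 to 0.861 by edgeR with each mouse left out. Without mouse 2 of ASAH+ Etoh the log2 fold change was -0.65 and edgeR's adjusted p was 0.0881, which passed.

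Itih3 lies on chr14:30908572-30923760 (minus strand, GRCm38.p6), with Itih4 on chr14:30886476-30902353 (plus strand), so the genes are neighbours that point at each other. Itih3 measured 745, 744, 975, 1001 and 958 CPM in ASAH+ Etoh-Dox against 1052, 1253, 1119 and 949.9 CPM in ASAH+ Etoh. The low mice of Itih3, mice 1 and 2 of ASAH+ Etoh-Dox, were the high mice of Saa1. Its log2 fold change was -0.31 (SE 0.12; exact two-sided permutation p = 0.0714), and that of Hp was -0.39 (SE 0.18; exact two-sided permutation p = 0.0873). Orm2 differed by -0.92 (SE 0.47), Lcn2 by -0.66 (SE 0.66) and Orm1 by -0.23 (SE 0.12), all within overlapping groups. With each mouse left out in turn, Lcn2 ran from -1.27 to -0.35 and Orm1 from -0.35 to -0.17. Saa1 differed by 0.20 (SE 0.74), Saa2 by 0.78 (SE 0.82) and Hpx by 0.05 (SE 0.13), and without mouse 1 of ASAH+ Etoh-Dox these became -0.67, -0.062 and -0.10. Hpx also turned, to -0.0031, without mouse 3 of ASAH+ Etoh.

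**Figure D3:**
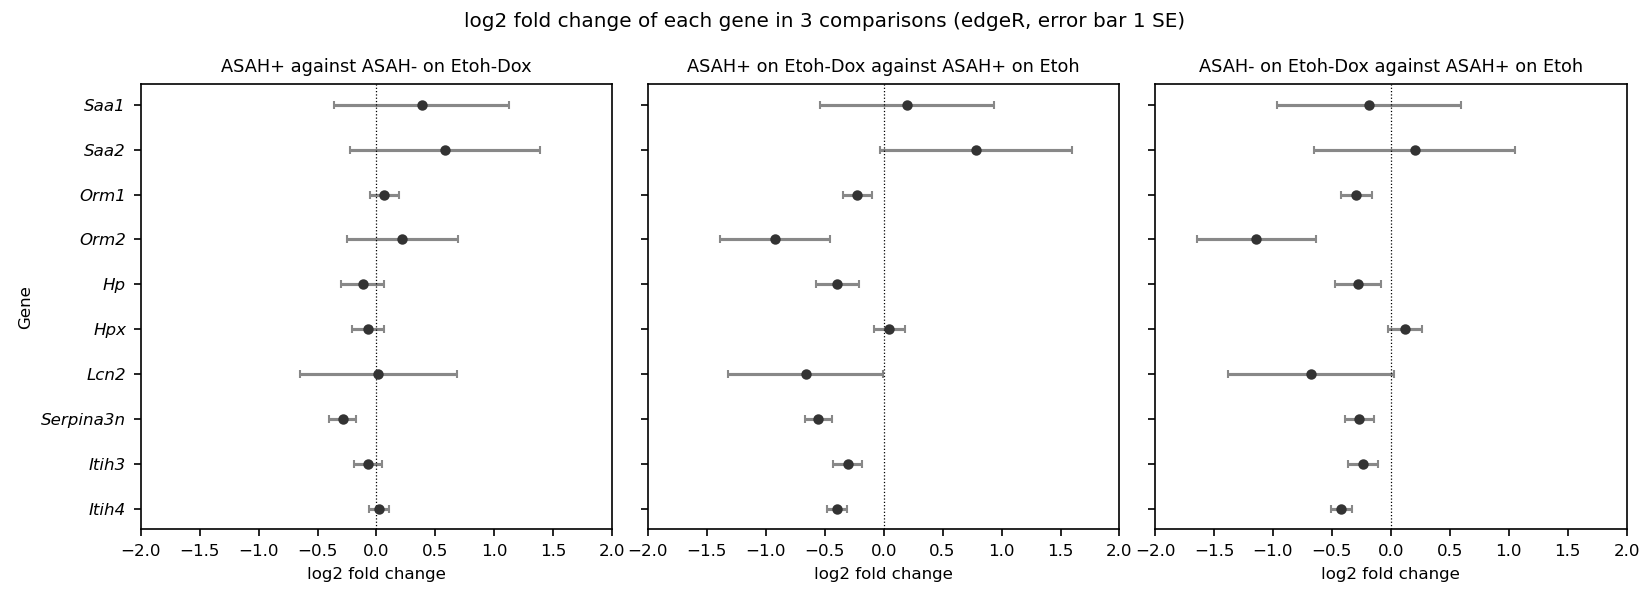
Log2 fold change of each of the 10 genes in each of the 3 comparisons, as points. Bars are 1 standard error, worked out from the log2 fold change and F statistic of edgeR's fit on 13 mice. Itih4 and Serpina3n have short bars that lie below 0 in the comparison of ASAH+ Etoh-Dox with ASAH+ Etoh, and Saa1 and Saa2 have long bars that reach across 0.

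The last comparison is of ASAH- Etoh-Dox with ASAH+ Etoh mice, where the transgene is absent in the former and not induced in the latter. It shares all of its mice with the other comparisons. Dox and genotype differ together and cannot be told apart. Itih4 had the clearest difference, against the same 4 ASAH+ Etoh mice as in the second comparison. By edgeR's unadjusted p, Orm1, Orm2 and Serpina3n came next. No member passed an adjusted p under 0.1 by edgeR's quasi-likelihood test after Benjamini-Hochberg adjustment (0 of 10, against 0.014% of all genes). An unadjusted p under 0.05 was reached by 4 of 10, all lower (Itih4, Serpina3n, Orm1 and Orm2), against 9.18% of all genes and 4.1% on the lower side. DESeq2 on all 13 mice called 1 of 10, on the lower side, against 1.73% of the genes it gave an adjusted p and 1.1% on the lower side.

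Itih4 measured 3225, 3305, 3429 and 2792 CPM in ASAH- Etoh-Dox against the 3880.1 to 4456 CPM of ASAH+ Etoh. All 4 ASAH- mice lay below all 4 ASAH+ Etoh mice, as in 1 of 10 members and in 2.4% of all genes on the lower side (3.09% on the higher side). The log2 fold change was -0.42 (SE 0.088), and the exact permutation test (two-sided) gave p = 0.0286, its lowest possible value for groups of 4 and 4. Its adjusted p was 0.389 by edgeR's quasi-likelihood test after Benjamini-Hochberg adjustment and 0.000816 by DESeq2 on all 13 mice, and it ran from 0.000816 to 0.662 over the alternative settings with no mouse left out and from 0.212 to 0.666 by edgeR with each mouse left out. The summed macrophage markers described below also separated these groups, at 457 to 941 CPM in ASAH- Etoh-Dox and 336 to 430.4 CPM in ASAH+ Etoh. Whether that bears on Itih4 was not tested. Orm2 differed by -1.14 (SE 0.50; exact two-sided permutation p = 0.0857) and Orm1 by -0.29 (SE 0.13; exact two-sided permutation p = 0.0857). DESeq2 on these groups alone gave Orm2 an adjusted p of 0.0982, in a range of 0.0982 to 0.763 over the alternative settings with no mouse left out and of 0.483 to 0.789 by edgeR with each mouse left out. Serpina3n differed by -0.27 (SE 0.12), Itih3 by -0.23 (SE 0.13), Hp by -0.28 (SE 0.19), Lcn2 by -0.68 (SE 0.70) and Hpx by 0.12 (SE 0.14). With each mouse left out in turn, Lcn2 ran from -0.98 to -0.37 and Hpx from 0.059 to 0.16. Saa1 at -0.18 (SE 0.78) became 0.020 without ASAH- mouse 1 and 0.13 without ASAH- mouse 4, and Saa2 at 0.20 (SE 0.85) became -0.27 without ASAH- mouse 2 and -0.037 without ASAH- mouse 3.

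Side by side, the median log2 fold change of the 10 members was 0.02 for ASAH+ against ASAH- on Etoh-Dox, -0.35 for ASAH+ Etoh-Dox against ASAH+ Etoh and -0.27 for ASAH- Etoh-Dox against ASAH+ Etoh. Over all genes tested the same medians were -0.0023, 0.01 and 0.02. With copies summed before the fit, Saa1 and Saa2 together differed by 0.46 (SE 0.77), 0.40 (SE 0.77) and -0.06 (SE 0.80) in the 3 comparisons, and Orm1, Orm2 and Orm3 together by 0.08 (SE 0.14), -0.28 (SE 0.14) and -0.36 (SE 0.14). The exact two-sided permutation p of the summed Orm level was 0.0714 in the second and 0.0571 in the last. Members below 0 numbered 4, 7 and 8 of 10, where 50.7%, 47.0% and 46.8% of all genes lay below 0. Over the 13 fits that each lacked 1 mouse, the number below 0 ran from 3 to 10 in the first comparison (median of the members -0.23 to 0.10), from 7 to 10 in the second (-0.50 to -0.31) and from 7 to 9 in the last (-0.36 to -0.24), so only the first median changed its sign. Without mouse 1 of ASAH+ Etoh-Dox, 10 of 10 lay below 0 in the first comparison (median -0.23, with 51.1% of all genes below 0) and 10 of 10 in the second (median -0.50, with 48.8%). Without mouse 4 of ASAH- Etoh-Dox, 7 of 10 lay below 0 in the first (median -0.030). The ASAH+ Etoh group had the highest mean of the 3 for Orm1, Orm2, Hp, Lcn2, Serpina3n, Itih3 and Itih4, and not for Saa1, Saa2 or Hpx.

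Acute phase genes of the liver are known to move together, and pairs of the 10 were compared across the 13 mice. Of 45 pairs of members, 30 had a Pearson adjusted permutation p under 0.05 (Benjamini-Hochberg over the 45 pairs), 27 of them positive, and 23 passed by Spearman's rho. The lowest of the 30 had an r of 0.60 in size, which 6.44% of all pairs of the 14317 genes tested reached or exceeded (3.35% positive and 3.08% negative), as a description. For Saa1 and Saa2 Pearson's r of log2 CPM was 0.97 (two-sided permutation p = 1e-05, adjusted p = 0.00045) and rho was 0.95 (permutation p = 2e-05, adjusted p = 0.0009). These copies share sequence, and the part of shared reads in that value was not tested. Saa1 and Lcn2, which share no such stretch, had an r of 0.91 (permutation p = 2e-05, adjusted p = 0.00045) and a rho of 0.80 (permutation p = 0.00162, adjusted p = 0.0104). Saa1 and Orm2 had an r of 0.83 (permutation p = 0.00083, adjusted p = 0.00373) and a rho of 0.77 (permutation p = 0.00297, adjusted p = 0.0134). Without the 2 mice farthest from the median of Saa1 the r values were 0.94, 0.90 and 0.83. The labels give no batch within which they could be recomputed. The values above include differences between groups. After the group means were removed, r of Itih4 fell from 0.66 to 0.21 with Serpina3n, from 0.63 to 0.22 with Orm2 and from 0.62 to 0.40 with Hp. With Orm1 it went from 0.79 to 0.72. The 6 pairs of Saa1, Saa2, Orm2 and Lcn2 had an r of 0.90 to 0.99 after that step.

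Itih3 went the other way. All 3 of the negative pairs that passed were with Itih3, whose partners were Saa1, Saa2 and Hpx, and none of the 3 passed by Spearman's rho. With Saa2 its r was -0.75 (permutation p = 0.00349, adjusted p = 0.00987) and its rho -0.62 (permutation p = 0.0284, adjusted p = 0.0533), and r was -0.53 without the 2 mice farthest from the median. With Saa1 its r was -0.61 (permutation p = 0.0266, adjusted p = 0.0436) and its rho -0.55 (permutation p = 0.0523, adjusted p = 0.0817), and r was -0.49 without 2 mice. With Hpx its r was -0.60 (permutation p = 0.0281, adjusted p = 0.0436) and its rho -0.51 (permutation p = 0.0806, adjusted p = 0.121), and r was -0.51 without 2 mice. After the group means were removed, r of Itih3 was -0.92 with Saa1, -0.92 with Saa2, -0.71 with Hpx and -0.92 with Orm2. It was -0.88 with Lcn2, -0.81 with Hp, -0.68 with Serpina3n and -0.58 with Orm1. Without that step these last were -0.34, -0.19, 0.18 and -0.03. For Orm2 the value without that step was nearer 0, with an r of -0.21 (permutation p = 0.481, adjusted p = 0.553), a rho of -0.26 and an r of -0.11 without 2 mice. Itih4, the neighbour of Itih3, had an r of 0.51 with it (permutation p = 0.0753, adjusted p = 0.103; rho 0.37, permutation p = 0.210, adjusted p = 0.262), and of -0.05 after the group means were removed.

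**Figure D4:**
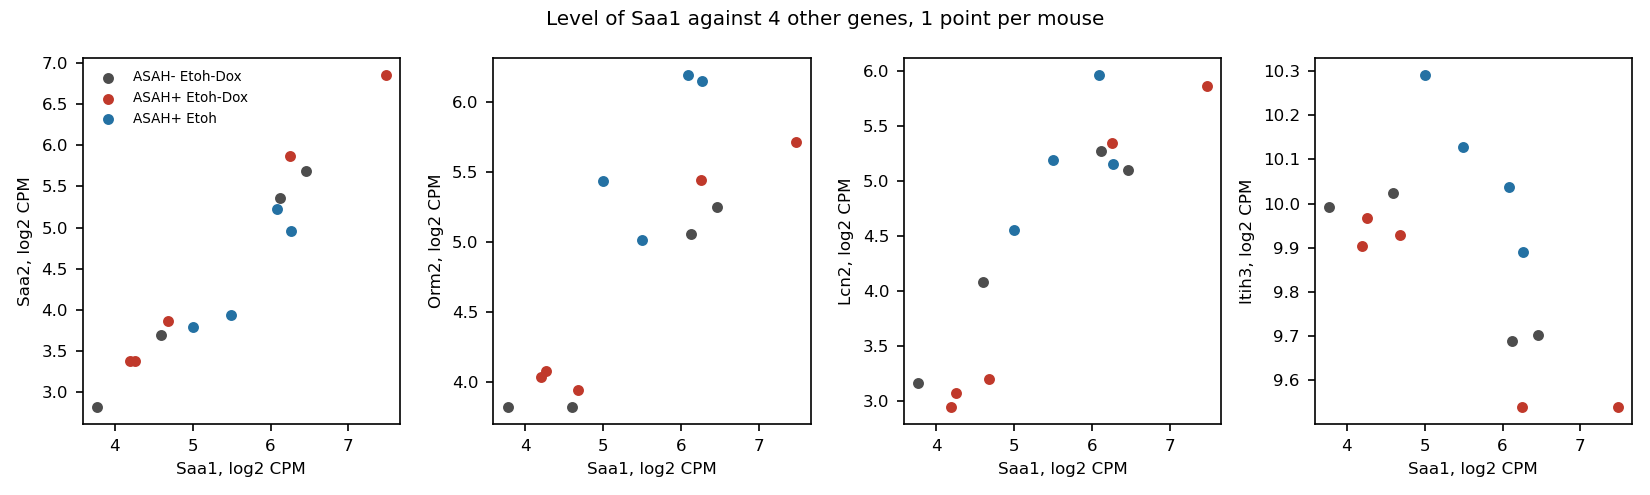
Level of Saa1 against that of Saa2, Orm2, Lcn2 and Itih3, in log2 CPM with 1 point per mouse and a colour per group. Saa2, Orm2 and Lcn2 climb with Saa1 (r of 0.97, 0.83 and 0.91) and Itih3 declines with it (r of -0.61).

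**Figure D5:**
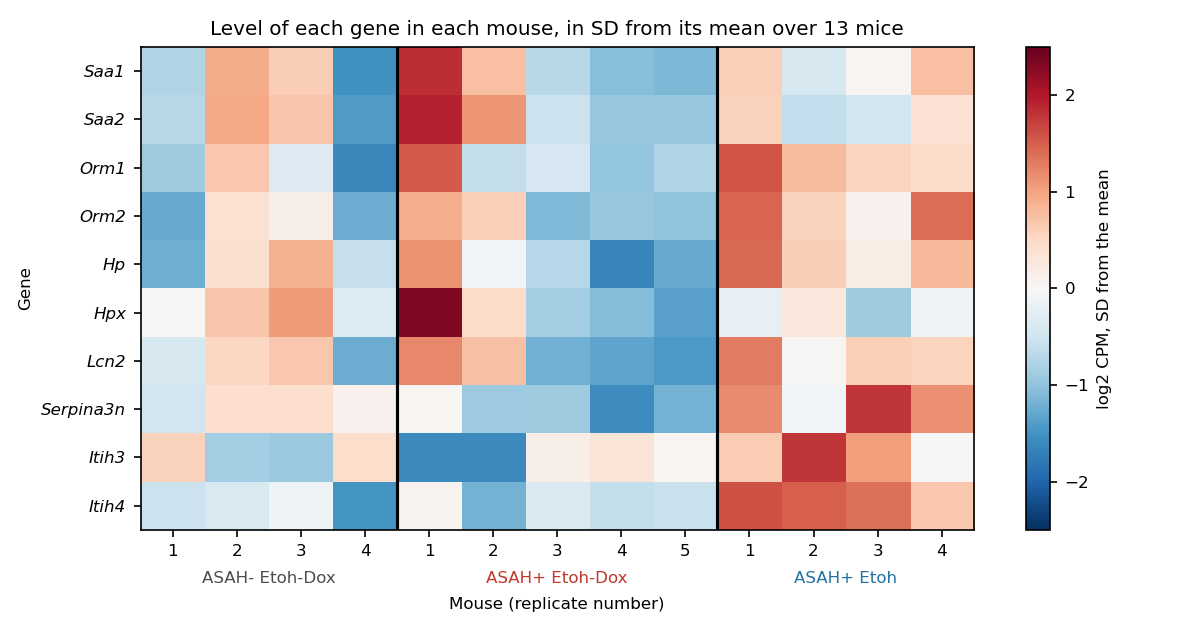
Level of each gene in each mouse after scaling log2 CPM to a mean of 0 and an SD of 1 over the 13 mice, with mice in columns by group and genes in lines. Mice 3, 4 and 5 of ASAH+ Etoh-Dox and mice 1 and 4 of ASAH- Etoh-Dox have the lowest means over the 10 genes, while mouse 1 of ASAH+ Etoh-Dox and the 4 ASAH+ Etoh mice have the highest.

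The sequence before each gene start was looked up because 27 of the 45 pairs of members had passed with a positive r, though none of these included Itih3. RefSeq (GRCm38.p6) gave a promoter of 300 bases, 250 before and 50 after the start, for 8 of the 10 members, all but Orm1 and Hp. On both strands 4 motifs were searched: TTGCNNAA for C/EBP, TTCNNNGAA for STAT, CTGGGA for the IL-6 response element and a motif of NF-kB, where N is any base. No motif is part of another. TTGCNNAA matched in 5 of 8 members (Saa1, Saa2, Orm2, Hpx and Lcn2), and in 10.8% of 32851 RefSeq promoters of this length. TTCNNNGAA and CTGGGA each matched in 1 of 8, both in Itih4 (8.30% and 31.8% of all promoters), and the NF-kB motif in 1 of 8, Serpina3n (1.63%). The motifs were set after the promoters had been seen, so these counts and shares are descriptions and no fair contrast. A match says only that these letters are in the window. The promoters of the 4 widely varying genes and of Itih4 are printed, 5′ to 3′ on the strand of the gene, with the matches in capitals. Saa1 is chr7:46742931-46743230 (minus strand), Saa2 is chr7:46751583-46751882 (plus strand), Orm2 is chr4:63362199-63362498 (plus strand), Lcn2 is chr2:32387690-32387989 (minus strand) and Itih4 is chr14:30886226-30886525 (plus strand).
Saa1: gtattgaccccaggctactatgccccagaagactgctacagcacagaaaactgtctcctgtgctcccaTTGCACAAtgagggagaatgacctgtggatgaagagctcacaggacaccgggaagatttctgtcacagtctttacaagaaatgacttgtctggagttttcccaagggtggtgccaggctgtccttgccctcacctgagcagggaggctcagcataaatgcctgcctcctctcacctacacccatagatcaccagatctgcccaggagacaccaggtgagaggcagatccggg
Saa2: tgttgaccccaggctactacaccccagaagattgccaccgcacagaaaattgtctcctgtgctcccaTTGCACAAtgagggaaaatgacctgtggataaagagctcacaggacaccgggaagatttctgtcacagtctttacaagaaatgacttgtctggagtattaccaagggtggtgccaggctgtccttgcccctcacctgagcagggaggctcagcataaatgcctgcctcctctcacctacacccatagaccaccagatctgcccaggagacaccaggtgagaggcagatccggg
Orm2: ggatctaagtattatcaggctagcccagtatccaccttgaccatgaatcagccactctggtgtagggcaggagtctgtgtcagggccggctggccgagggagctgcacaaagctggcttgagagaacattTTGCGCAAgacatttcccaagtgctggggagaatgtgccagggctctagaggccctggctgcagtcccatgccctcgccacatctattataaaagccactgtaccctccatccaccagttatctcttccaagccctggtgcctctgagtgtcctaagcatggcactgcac
Lcn2: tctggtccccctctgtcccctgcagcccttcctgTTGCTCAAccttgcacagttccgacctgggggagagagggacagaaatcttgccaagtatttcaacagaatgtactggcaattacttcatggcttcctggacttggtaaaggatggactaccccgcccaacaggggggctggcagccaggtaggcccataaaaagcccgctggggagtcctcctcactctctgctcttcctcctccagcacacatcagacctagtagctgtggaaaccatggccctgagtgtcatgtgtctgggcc
Itih4: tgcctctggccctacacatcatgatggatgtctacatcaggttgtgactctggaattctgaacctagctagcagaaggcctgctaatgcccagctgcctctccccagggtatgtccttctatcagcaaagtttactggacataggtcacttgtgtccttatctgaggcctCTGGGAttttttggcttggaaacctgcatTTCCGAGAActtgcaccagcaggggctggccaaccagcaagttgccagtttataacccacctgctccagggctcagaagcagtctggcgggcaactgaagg
The promoters of Saa1 and Saa2 were identical at 287 of 301 aligned columns (95.3%), so they are close to 1 sequence, and both hold TTGCACAA, 182 and 183 bases before the start. Orm2 holds TTGCGCAA 120 bases before its start, which reads the same on both strands, and matched Orm3 at 264 of 305 columns (86.6%). Lcn2 holds TTGCTCAA 216 bases before the start. Itih4, the gene with the least spread of the 10, holds TTCCGAGAA 51 bases and CTGGGA 80 bases before its start.

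Other genes of the acute phase response were described by list. Among 22 other positive acute phase genes, of which 21 were tested, 0 passed by edgeR's quasi-likelihood test after Benjamini-Hochberg adjustment in any comparison. At an unadjusted p under 0.05, 2, 3 and 2 passed in the first, second and last comparison, all lower, where 1.57%, 3.24% and 4.1% of all genes were lower at that p, and DESeq2 on all 13 mice called 0, 2 and 1, all lower, against 0.0316%, 4.04% and 1.1% lower among the 15808, 1982 and 8625 genes to which DESeq2 gave an adjusted p. Their median log2 fold changes were -0.05, -0.14 and -0.07. The fibrinogen-like protein Fgl1 had a log2 fold change of -0.50 (DESeq2 adjusted p = 0.0622) in ASAH+ Etoh-Dox against ASAH+ Etoh and of -0.55 (DESeq2 adjusted p = 0.0909) in ASAH- Etoh-Dox against ASAH+ Etoh. Lrg1, a glycoprotein with leucine-rich repeats, had -0.49 (DESeq2 adjusted p = 0.0411) in the second comparison. The largest differences by size were those of the metallothioneins Mt2 and Mt1 and of hepcidin (Hamp) in the first comparison, at -1.19, -0.95 and -0.61. In the second they were those of Hamp, Orm3 and Mt2, at -1.67, -0.68 and -0.63, and in the third of Hamp, Orm3 and Mt1, at -1.06, -0.89 and 0.63. Hamp ran from 1.35 to 532 CPM over the 13 mice and its SE was at least 1.42 in each comparison.

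Negative acute phase proteins were 9 genes, all tested, and 0 passed by edgeR's quasi-likelihood test after Benjamini-Hochberg adjustment in any comparison. At an unadjusted p under 0.05, 2 were lower in the first, 1 was higher and 1 lower in the second and 1 was higher in the third, where 2.86%, 7.29% and 9.18% of all genes passed in either direction, and DESeq2 on all 13 mice called 1 lower, 1 lower and 1 higher, against 0.0759%, 4.94% and 1.73% in either direction among the genes to which DESeq2 gave an adjusted p. Fetuin-A (Ahsg) had a log2 fold change of -0.42 (SE 0.086, DESeq2 adjusted p = 0.0128) in ASAH+ against ASAH- on Etoh-Dox, and was higher in the ASAH+ mouse in 0 of 20 pairs. In ASAH+ Etoh-Dox against ASAH+ Etoh it had -0.24 (DESeq2 adjusted p = 0.0938), again with 0 of 20 pairs higher, and in the third comparison 0.18. Apoa1, the main protein of high-density lipoprotein, had -0.28, 0.26 and 0.54 in the 3 comparisons, the last with a DESeq2 adjusted p of 0.0448. Alb had -0.19 in the first, and F12 had 0.32 in the second and 0.23 in the third.

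Of 9 cytokines that start the response, 3 passed the filter on low counts and were tested. These were Il1a with 37 to 122 counts per mouse, Il1b with 13 to 89 and Ctf1 with 37 to 105. Among the other 6, Il6 had at most 6 counts in any mouse, Tnf at most 19, and Il22 had no count. The receptor and transducer genes were expressed, and of 12 receptors and 17 transducers all were tested and 0 passed by edgeR's quasi-likelihood test after Benjamini-Hochberg adjustment in any comparison. At an unadjusted p under 0.05, receptors passed 0, 1 and 2 times and transducers 0, 2 and 1 times, against the same 2.86%, 7.29% and 9.18% of all genes, and DESeq2 on all 13 mice called 0 of either. Over the 13 mice Il6ra ran from 73.6 to 132 CPM, Il6st (gp130) from 142 to 231, Il1r1 from 28.8 to 68.1, Jak1 from 90.2 to 115, Stat3 from 91.8 to 179.6, Cebpb from 7.09 to 18.7 and Cebpd from 0.882 to 2.39 CPM. In ASAH+ Etoh-Dox against ASAH+ Etoh, the log2 fold change was -0.38 for Stat3 (SE 0.18), -0.24 for Il6st (SE 0.13), -0.17 for Jak1 (SE 0.075) and -0.44 for Il1r1 (SE 0.19), with DESeq2 adjusted p at or above 0.199 for those it gave one. Of the other named genes Cebpb had 0.19 (SE 0.27), Cebpd 0.37 (SE 0.32) and Il6ra -0.03 (SE 0.16), and the lists went no single way: the 17 transducers had a median of 0.12, from -0.38 to 0.39, and the 12 receptors a median of -0.02, from -0.44 to 0.24. Of 9 feedback inhibitors 8 were tested, with 0 at an adjusted p under 0.1 by edgeR's quasi-likelihood test after Benjamini-Hochberg adjustment, 0 at an unadjusted p under 0.05 and 0 by DESeq2 in each comparison. Among them, Socs3, which blocks signalling from gp130, ran from 3.50 to 9.94 CPM and Nfkbia, which holds NF-kB in the cytoplasm, from 21.6 to 43.7 CPM.

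The genes most like the 10 were sought over the 13 mice among 11100 genes, by Pearson's r with the mean of the members' scaled levels, given as a description. The 5 highest were Ly96 (r 0.95, rho 0.88, r without 2 mice 0.92), Prg4 (0.91, 0.94 and 0.90), Sult2a1 (0.91, 0.92 and 0.87), Abcc4 (0.90, 0.83 and 0.88) and the complement gene C4b (0.90, 0.88 and 0.90). Ly96 encodes the partner of Toll-like receptor 4 that binds endotoxin, and ran from 2.51 to 4.03 CPM. The 5 lowest were Nlrp6 (r -0.94, rho -0.93, r without 2 mice -0.92), Dio3os (-0.86, -0.91 and -0.82), Ccdc167 (-0.86, -0.88 and -0.81), Sec14l2 (-0.85, -0.70 and -0.77) and 1 of the genes named C730027H18Rik (-0.85, -0.84 and -0.77). With the summed level of Saa1 and Saa2 as the reference, 1 of the 5 highest, Ly96, and 0 of the 5 lowest were shared. Among the members, r with the mean was highest for Hp at 0.95 and lowest for Itih3 at -0.14. Each member is itself part of that mean, so these values are not comparable with those of the other genes.

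Markers of other cells were set beside the summed level of Saa1 and Saa2, among 9 relations in all. The relations were chosen after values had been seen, so r and rho are descriptions with no p. Of 11 neutrophil markers, 7 had at most 10 counts in every mouse, none was at 0 in all mice, and the most abundant was Csf3r at a mean of 1.85 CPM. Their sum was 2.19, 4.24, 5.99 and 3.39 CPM in ASAH- Etoh-Dox, 3.90, 4.75, 3.65, 2.73 and 1.99 CPM in ASAH+ Etoh-Dox, and 2.95, 3.25, 3.85 and 3.06 CPM in ASAH+ Etoh. Its r with summed Saa was 0.57 and its rho 0.71, with an r of 0.51 without 2 mice. The sum stayed at or under 5.99 CPM, and its part in the level of Saa was not tested. Macrophage markers, 10 genes all above 0 with Cd5l the most abundant at a mean of 138 CPM, summed to 457, 462, 941 and 559 CPM in ASAH- Etoh-Dox, 643, 636, 340.1, 527 and 347 CPM in ASAH+ Etoh-Dox, and 430.4, 336, 381 and 405 CPM in ASAH+ Etoh. Their r with summed Saa was 0.42 and their rho 0.41, with an r of 0.15 without 2 mice. The sums of hepatocyte, endothelial, stellate and cholangiocyte markers had an r of -0.50, 0.06, 0.27 and 0.01 and a rho of -0.27, -0.08, 0.17 and 0.24, with r of 0.06, -0.24, 0.01 and 0.17 without 2 mice. The hepatocyte sum includes the negative acute phase genes Alb, Ttr and Apoa1.

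Interleukin-1 beta is 1 of the cytokines that act on serum amyloid A genes. Il1b measured 0.684, 3.43, 2.16 and 1.501 CPM in ASAH- Etoh-Dox, 2.46, 1.80, 0.470, 1.00 and 0.650 CPM in ASAH+ Etoh-Dox, and 2.07, 0.935, 1.11 and 1.68 CPM in ASAH+ Etoh, from 13 to 89 counts per mouse. The mice with the most Saa in the Dox groups, mice 2 and 3 of ASAH- and mice 1 and 2 of ASAH+, also had the most Il1b in their groups. Its r with summed Saa was 0.75 and its rho 0.80, with an r of 0.77 without 2 mice. Library total had an r of 0.22 and a rho of 0.20 with summed Saa, and an r of -0.07 without 2 mice. The clock ratio, log2 of Dbp over Arntl, ran from -1.64 to 6.78 over the mice and had an r of 0.43 and a rho of 0.49, with an r of 0.31 without 2 mice. It was 6.64 and 6.78 in mice 1 and 2 of ASAH+ Etoh-Dox, against -1.64, 0.15 and 2.70 in mice 3 to 5. In ASAH- Etoh-Dox mice 1 to 4 it was -0.96, 6.49, 1.81 and 6.11, where mouse 4 had the least Saa. Whether Il1b or the clock ratio bears on the level of Saa was not tested.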

How the data were processed

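Per the labels, the authors used Salmon on GRCm38.p6, and they deposited estimated counts per gene, all whole numbers, which were used as they are. Gene identifiers were matched to symbols of GENCODE M21 (53355 of 53392). The members and gene lists were chosen with earlier results of these data known. TMM factors, CPM and log2 CPM (prior count 2) came from edgeR 4.0.16 in R 4.3.3. Of 28557 genes with any count, 14317 passed edgeR's filter on low counts and were tested by its robust quasi-likelihood test on 3 group means of 13 mice, with Benjamini-Hochberg adjustment over all genes and a threshold of 0.1. DESeq2 1.42.0, the authors' tool, was an alternative, as were other size factors, no filter, the replicate number as a block and each mouse left out. Permutation tests were coded with numpy 2.4.6: exact for single genes, 100000 resamples for correlations. Ranks and the Benjamini-Hochberg step over pairs came from scipy 1.17.1. Named genes were the 10 members, listed genes past the threshold, the 5 highest and 5 lowest in likeness, 9 signalling genes and the 3 largest differences of the positive and negative lists per comparison. Genes called by DESeq2, Saa3, Saa4, Il6, Tnf, Il22, Il1a, Il1b, Ctf1 and the group Saa1, Saa2, Orm2 and Lcn2 were chosen after their values were seen, as were the 9 relations with summed Saa. The 4 motifs were set after the promoters had been seen, as was the choice of promoters printed, and the share of all gene pairs was added after the results were known. The total count per mouse, 17819486 to 35358711, sets the depth.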

Additional observations from a re-analysis of the deposited data

Results flagged for a closer look

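Orm1 measured 726 CPM in ASAH+ Etoh-Dox mouse 1, the highest of 5, and its gap to the next mouse was large against the range of the group. This was 1 of 33 groups examined, and chance gives about 1 in 20. The scale, CPM, was not set beforehand.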

How the results depend on the processing

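Of 246 log2 fold changes under alternative settings with no mouse left out, 234 kept their direction and their side of the threshold, and 4 kept their direction but had no adjusted p. Genes called by edgeR numbered 2, 2 and 2 in the first, second and last comparison. DESeq2 on all 13 mice called 12, 98 and 149, and DESeq2 on the groups compared alone 11, 114 and 168. With edgeR on the groups compared alone the first gave 1 and the third 0, with no filter on counts the second gave 4, and at an adjusted p under 0.05 the third gave 0. With each mouse left out they ran from 1 to 2, from 2 to 8 and from 0 to 2, and the cause was not tested. Members called numbered 0, 0 and 0, and became 2 in the second comparison with either DESeq2 fit and 1 (all 13 mice) or 2 (groups alone) in the third; with a mouse left out they ran from 0 to 1 in the second. Log2 fold changes past the threshold only under such a setting were those of Serpina3n (-0.56 and -0.56) and Itih4 (-0.41 and -0.41) in the second comparison and of Itih4 (-0.44 and -0.44) and Orm2 (-1.16) in the third, all with DESeq2; with a mouse left out, Serpina3n passed by edgeR without ASAH+ Etoh mouse 2 (-0.65). With the replicate number as a block, edgeR called 1 gene in the first comparison and 0 in the third, and Saa1 in the second turned to -0.026; it changed no other call or direction of a member. Mice of the same number had a mean correlation of deviations of -0.05 over 12 pairs, 2 of them over 0.1, and 0 mice correlated best with their own number. No pairing by number was thus seen, though this check could miss a pairing by feeding or litter. With each mouse left out, 369 of 390 values kept direction and side, and 12 results turned direction, the cause of which was not tested. Their ranges in the first comparison were -0.48 to 0.83 for Saa1, -0.25 to 1.05 for Saa2, -0.041 to 0.16 for Orm1, -0.11 to 0.50 for Orm2, -0.27 to 0.0051 for Hp, -0.57 to 0.32 for Lcn2 and -0.035 to 0.060 for Itih4. In the second they were -0.67 to 0.43 for Saa1, -0.062 to 1.07 for Saa2 and -0.10 to 0.10 for Hpx, and in the third -0.63 to 0.13 for Saa1 and -0.27 to 0.53 for Saa2. Pairs of members past the threshold numbered 30, and 33 with group means removed, 30 with a prior count of 0.5, 29 with DESeq2's size factors and 21 to 29 with a mouse left out. The genes most like the members shared 1 of 10 with those most like summed Saa. Depth limits Il6, Tnf and 7 of the 11 neutrophil markers, which had few counts in every mouse.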
